A study of Arabidopsis thaliana with 18 samples.

Results

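Seedlings of Arabidopsis thaliana that overexpress the heat shock factor HSFA6b were exposed to NaCl and compared with untreated seedlings of the same line. The comparison rests on 4 of the 18 arrays of the study: 2 from HSFA6b-OE seedlings kept in 150 mM NaCl for 6 h (OE NaCl) and 2 from HSFA6b-OE seedlings at 22 °C without NaCl (OE control). It covers the 16547 of 22746 probe sets that were called Present on both arrays of either group. All seedlings were 7 days old, whole, and grown at 22 °C on plates with 1% sucrose and MS salts at a strength of 0.5. Further genotypes and a heat treatment are set beside them: wild-type Col-0 seedlings (WT) and the dominant-negative line HSFA6b-RD (RD), each with and without the same NaCl treatment, and HSFA6b-OE seedlings at 37 °C for 1 h (OE heat), all with 2 arrays a group. The labels give neither the promoter of the transgenes nor the number of lines, and no probe set carried the name HSFA6b, so its overexpression was not checked on these arrays.

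Heat shock factors are transcription factors that bind to heat shock elements in promoters and switch on chaperone genes. Salt stress in plants has an osmotic and an ionic part. The hormone abscisic acid (ABA) relays much of the osmotic part through protein phosphatases 2C and bZIP factors, while DREB factors act beside it on dehydration and cold genes. HSFA6b is known as a heat shock factor whose transcript responds to ABA, salt and drought, and it links ABA signalling with heat tolerance.

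Levels are MAS5 signals, linear intensities that were scaled to the same mean on every array, and differences are log2 NaCl minus log2 control with the standard error (SE) of limma's fit over all 18 arrays. A probe set was called at an adjusted p (Benjamini-Hochberg) under 0.05. On the 4 arrays 66.8% to 72.8% of probe sets were Present. The OE NaCl arrays differed from each other more than the OE control arrays did: the SD of the log2 difference between replicates was 0.738 in OE NaCl, against 0.450 in OE control, and 13.3% of probe sets differed by over 1 log2 unit in OE NaCl, against 3.52% in OE control. The array of OE NaCl 1 belongs, by the number in its deposited array name, to a second series of 3 arrays with WT NaCl 1 and WT heat 1. All others belong to the first series, so both OE control arrays and OE NaCl 2 do.

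After 6 h in NaCl, 1955 probe sets (11.8%) were higher and 2560 (15.5%) lower in OE NaCl than in OE control seedlings, 27.3% of all. Of these, 645 (3.9%) were higher and 548 (3.31%) lower by at least 4-fold. The median difference over all 16547 probe sets was -0.15. The largest rises included chaperones and stress transcription factors, and the largest falls included peroxidases, cell wall proteins and seed proteins. In all 4515 called probe sets both OE NaCl signals lay on the same side of both OE control signals, as they did in 4771 of all probe sets for higher and 6615 for lower values, called or not. The number of calls depended on single arrays. It was 1655 higher and 2453 lower without OE NaCl 1, 1032 and 1012 without OE NaCl 2, 1153 and 1281 without OE control 1, and 1110 and 1072 without OE control 2. With the array series as a block it was 2405 higher and 3910 lower.

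Among the probe sets with a gene name, other than a locus code, that were Present on all 4 arrays, the largest rise was that of Fes1A, a co-chaperone that assists HSP70. Its signal was 10030.5 and 12822 in OE NaCl seedlings, against 117 and 173 in OE control seedlings (log2 difference 6.32 ± 0.27 SE, adjusted p = 1e-08). DREB2A, a factor that activates dehydration and heat genes, had 16698 and 17048 in OE NaCl seedlings, against 229 and 232 in OE control seedlings (log2 difference 6.19 ± 0.28 SE, adjusted p = 1.4e-08). For both genes the 2 pairs of signals lay far apart. GH3.3, an enzyme that joins auxin to amino acids, had 9234 and 15564 in OE NaCl seedlings, against 279 and 138 in OE control seedlings (log2 difference 5.94 ± 0.53 SE, adjusted p = 6.5e-06). The cytosolic small heat shock protein HSP17.6A had 17094 and 16275 in OE NaCl seedlings, against 246 and 364 in OE control seedlings (log2 difference 5.80 ± 0.45 SE, adjusted p = 1.9e-06). In none of these 4 did an OE NaCl array come near the OE control range. The other 8 of the 12 largest rises had log2 differences of 4.45 to 5.61. They were the jasmonate-regulated JRG21 (5.61), the blue copper-binding protein BCB (4.94), HSP70 (4.85), the zinc finger repressor STZ (4.69), the co-chaperone Hop3 (4.67), the zinc finger factor Zat12 (4.60), the calmodulin-like CML38 (4.52) and HSP17.6II (4.45). JRG21 was the least even of them, with 1544 and 5294 in OE NaCl seedlings, against 42.8 and 79.9 in OE control seedlings.

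The largest fall among the named probe sets belonged to the expansin EXPA4, which loosens cell walls, with 134 and 67.9 in OE NaCl seedlings, against 1181 and 1821 in OE control seedlings (log2 difference -3.94 ± 0.57 SE, adjusted p = 0.00032). The glutathione transferase GSTU20 had 724 and 91.6 in OE NaCl seedlings, against 3099.9 and 4657 in OE control seedlings (log2 difference -3.88 ± 1.04 SE, adjusted p = 0.015). Here OE NaCl 1 stood well above OE NaCl 2, and both stood below the OE control arrays. Another 3 of the 12 were proteins of the seed or its germination: ALPHA-TIP, a water channel of storage vacuoles (-3.56), the late embryogenesis protein M17 (-3.28) and GASA3, of the gibberellin-regulated peptides (-3.72). The wall-remodelling XTH19 (-3.24) and EXPA8 (-3.07), TBL45 (-3.12), the tubulin TUB1 (-2.87), the peptide RALFL24 (-2.66), the glucosidase BGLU19 (-3.63) and DRT100 (-3.72) completed the set.

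**Figure D1:**
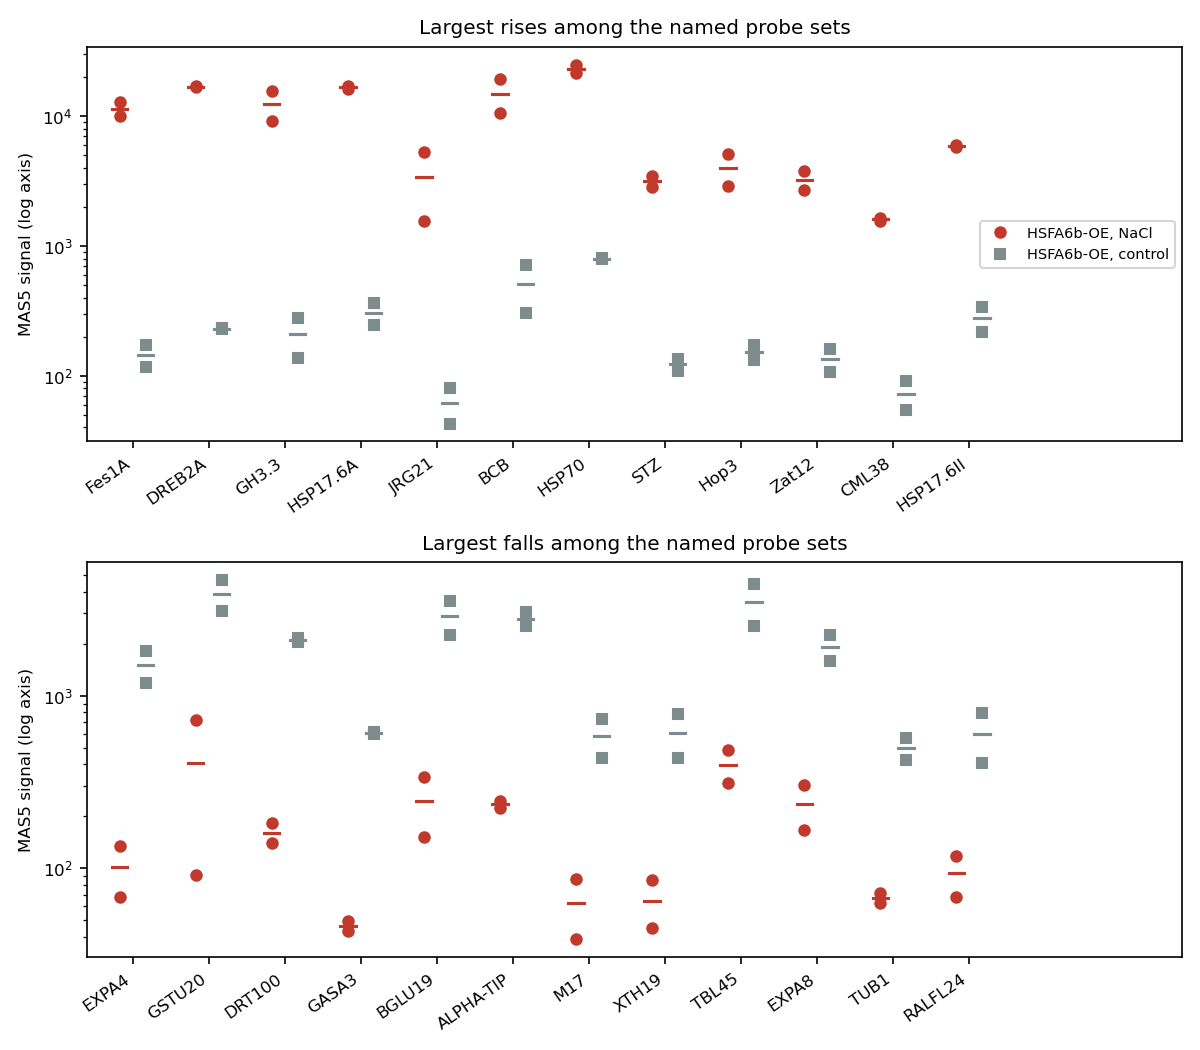
MAS5 signals (log axis) of the 12 largest rises and the 12 largest falls among named probe sets in HSFA6b-OE, with OE NaCl arrays as circles, OE control arrays as squares and the group means as bars. In every gene the circles and squares are apart, and the circles of JRG21 and GSTU20 are the widest spread of their panels.

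Counts by gene family are given for probe sets Present on both arrays of both OE groups, 14187 in all, of which 1703 (12%) were higher and 2072 (14.6%) lower, 26.6% together, with a median of -0.11. Without OE NaCl 2 the same probe sets gave 882 higher and 749 lower. A family's count of 4 or more is given again where leaving out an OE NaCl array moved it by over 1.5 times. The families were collected by words in the platform's descriptions. Their names are those of the descriptions, and 8730 probe sets of the array had no gene symbol.

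Many transcription factors of the dehydration and ethylene response rose. Of 42 AP2 and ethylene response factors, 19 were higher and 1 was lower, with a median of 1.01. Where a group had no Present call, the fold is a lower bound, set against the lowest signal called Present or the probe set's own signal, whichever was higher. The bound allows for signals too low to be called Present, not for the spread between replicates. Where the own signals were the higher on both arrays, it equals the fitted fold. The cold and dehydration factor CBF1 had 121 and 258 in OE NaCl seedlings, against 3.7 and 20.7 in OE control seedlings, not called Present in control, so it was at least 15.5-fold higher with NaCl (adjusted p = 0.0013). Its neighbour in the family, CBF2, had 493 and 1678 in OE NaCl seedlings, against 64.4 and 59.5 in OE control seedlings (log2 difference 3.88 ± 0.57 SE, adjusted p = 0.00037). In both genes OE NaCl 2 had more than OE NaCl 1, and neither overlapped with control. DREB2B, the close relative of DREB2A, was at least 15.6-fold higher, with 589.9 and 1361 in OE NaCl seedlings, against 57.2 and 58 in OE control seedlings (adjusted p = 0.00024). The ethylene response factor ERF1, at 818 and 846 in OE NaCl seedlings, was not Present in OE control seedlings, at 19.5 and 40.1, and was at least 29.8-fold higher (adjusted p = 0.00028). The family had 11 higher members without OE NaCl 2. ERF2 was Present throughout, with 1528 and 1788 in OE NaCl seedlings, against 247 and 145 in OE control seedlings (log2 difference 3.13 ± 0.39 SE, adjusted p = 9.9e-05). The ethylene receptor ETR2 did not pass the test (log2 difference 1.28 ± 0.60 SE, adjusted p = 0.13), with 546 and 151 in OE NaCl seedlings, against 126 and 111 in OE control seedlings.

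The rises of this family that stood out most were chosen after their values were seen and are known only by description. A probe set described as similar to CBF1 had 1894 and 2397 in OE NaCl seedlings, against 0.9 and 2.6 in OE control seedlings, at least 268-fold higher (adjusted p = 4.4e-06). A homolog of an ethylene-responsive element binding protein had 4343 and 5182 in OE NaCl seedlings, against 19.5 and 2.8 in OE control seedlings, at least 339.7-fold higher (adjusted p = 3.7e-06). Neither was called Present on an OE control array.

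Other factor families held both higher and lower members. Higher were 9 of 18 WRKY factors (median 1.11), 12 of 33 NAC domain factors (median 0.53) and 18 of 72 MYB factors (median 0.29), while 1, 1 and 2 of them were lower. The higher MYB factors numbered 7 without OE NaCl 2. A NAC-domain protein had 14409 and 15727 in OE NaCl seedlings, against 682 and 679.7 in OE control seedlings (log2 difference 4.47 ± 0.20 SE, adjusted p = 1.1e-08). A WRKY factor had 1564 and 1582 in OE NaCl seedlings, against 131 and 105 in OE control seedlings (log2 difference 3.74 ± 0.25 SE, adjusted p = 4.8e-07). In both the arrays of a group lay close together. A MYB96-like factor rose by 3.88 ± 0.28 on the log2 scale (adjusted p = 9.1e-07), and MYB28, an activator of glucosinolate synthesis, fell by 3.77 ± 0.65 (adjusted p = 0.001). Of the homeodomain leucine zipper family 10 of 32 were higher and 4 lower, and without OE NaCl 2 3 were higher and 1 lower. Of 14 C2H2 zinc finger factors 4 were higher and 2 lower (median -0.09), with 2 higher without OE NaCl 2, and of 27 bZIP factors 9 were higher and 2 lower (median 0.16). The ABA-inducible ATHB-7 and ATHB-12 did not pass, at 786 and 2669 in OE NaCl seedlings, against 528 and 596 in OE control seedlings for ATHB-7 (adjusted p = 0.14) and 843 and 5261 in OE NaCl seedlings, against 321 and 494 in OE control seedlings for ATHB-12 (adjusted p = 0.061). In both, OE NaCl 1 was nearer to the control arrays than to OE NaCl 2, and the groups did not overlap.

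Part of the ABA pathway rose. The 4 genes named here had more on OE NaCl 2 than on OE NaCl 1. Protein phosphatases 2C as a family differed little between these arrays, with 15 of 33 higher on OE NaCl 1. Of 33 protein phosphatases 2C, 12 were higher and 2 lower, with a median of 0.66, and 7 were higher without OE NaCl 2. ABI1, which blocks ABA signalling until a receptor binds it, had 4660.1 and 8136 in OE NaCl seedlings, against 728 and 793 in OE control seedlings (log2 difference 3.02 ± 0.42 SE, adjusted p = 0.00024). Its relative ABI2 had 671 and 2114 in OE NaCl seedlings, against 153 and 205 in OE control seedlings (log2 difference 2.75 ± 0.63 SE, adjusted p = 0.0061). ABI2 was not called Present on both arrays of both OE groups, so its fitted value rests in part on signals not called Present. AtP2C-HA, another phosphatase of this kind, had 1818 and 5800.2 in OE NaCl seedlings, against 708 and 1262 in OE control seedlings and did not pass (log2 difference 1.78 ± 0.78 SE, adjusted p = 0.11). The ABA-responsive bZIP factor ABF3 had 1745 and 6774 in OE NaCl seedlings, against 502 and 773 in OE control seedlings (log2 difference 2.46 ± 0.75 SE, adjusted p = 0.026). In all 4 genes OE NaCl 2 was the highest of the 4 arrays and OE NaCl 1 the next, without overlap with control.

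Proteins that protect cells from drying did not move as one. Of 27 probe sets for dehydrins, late embryogenesis abundant (LEA) and COR proteins, 6 were higher and 7 lower. The lower count was 3 without OE NaCl 1, and without OE NaCl 2 there were 3 higher and 4 lower. The chloroplast protein COR15A had 1302 and 9223 in OE NaCl seedlings, against 307 and 116 in OE control seedlings (log2 difference 4.197 ± 1.04 SE, adjusted p = 0.0099). LTI78, also known as RD29A and a standard reporter of osmotic stress, had 4584 and 7938 in OE NaCl seedlings, against 732 and 417 in OE control seedlings (log2 difference 3.45 ± 0.45 SE, adjusted p = 0.00013). The dehydrin COR47 had 19002 and 23062 in OE NaCl seedlings, against 5788 and 4156 in OE control seedlings (log2 difference 2.09 ± 0.35 SE, adjusted p = 0.00082). All 3 rose without overlap, and the OE NaCl arrays of COR15A differed most. LTI65, or RD29B, did not pass, with 1773 and 6226 in OE NaCl seedlings, against 1754 and 1091 in OE control seedlings (adjusted p = 0.14). RD22 (log2 difference -0.47 ± 0.56 SE, adjusted p = 0.57) and LEA4-5 (log2 difference 1.18 ± 0.84 SE, adjusted p = 0.32) did not pass either. Members that fell, beside M17, included the desiccation-related AT1G47980, at least 18.4-fold lower (adjusted p = 0.00073) and not Present in OE NaCl seedlings, at 12.2 and 53.4, against 479.5 and 459.8 in OE control seedlings.

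Genes for protective sugars and proline rose in part. Of 13 probe sets for trehalose synthesis 6 were higher and 1 lower (median 1.00). All 3 probe sets for galactinol and raffinose synthesis that were Present in both groups were higher. A galactinol synthase, which makes the first precursor of raffinose, had 6925 and 6991 in OE NaCl seedlings, against 1160.4 and 1549 in OE control seedlings (log2 difference 2.38 ± 0.38 SE, adjusted p = 0.00061). The pyrroline-5-carboxylate synthetase P5CS, which sets the rate of proline synthesis, had 4039 and 8599 in OE NaCl seedlings, against 1473 and 1905 in OE control seedlings (log2 difference 1.81 ± 0.52 SE, adjusted p = 0.02). OE NaCl 2 was again the highest for P5CS, and the groups did not overlap in either gene. P5CR, the next enzyme of the path, did not pass (log2 difference 0.65 ± 0.31 SE, adjusted p = 0.13), nor did the proline dehydrogenase ERD5 (log2 difference -0.14 ± 0.75 SE, adjusted p = 0.91). AT5G38710, described as a proline oxidase, rose by 1.81 ± 0.53 (adjusted p = 0.022). Of the proline transporters, PROT2 rose by 1.72 ± 0.38 (adjusted p = 0.0049) and PROT1 fell by 0.79 ± 0.23 (adjusted p = 0.022).

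Carriers of sodium and potassium had few calls as a family: of 36 probe sets 6 were higher and 4 lower, close to the shares over all probe sets, with 1 lower without OE NaCl 2. The protein kinase SOS2, which activates sodium export, had 108 and 226 in OE NaCl seedlings, against 94.6 and 110.3 in OE control seedlings and did not pass (log2 difference 0.61 ± 0.44 SE, adjusted p = 0.33). The Na+/H+ exchanger NHE1 had 404 and 1197 in OE NaCl seedlings, against 963 and 949.7 in OE control seedlings (log2 difference -0.46 ± 0.54 SE, adjusted p = 0.57), and the potassium channel AKT1 did not pass (log2 difference -0.24 ± 0.31 SE, adjusted p = 0.62). The sodium-calcium exchanger AT5G17850 had 1656 and 1807 in OE NaCl seedlings, against 140.5 and 147 in OE control seedlings (log2 difference 3.59 ± 0.29 SE, adjusted p = 2.9e-06). A second Na+/Ca2+ antiporter rose by 2.46 ± 0.26 (adjusted p = 2.8e-05), a potassium transporter rose by 2.29 ± 0.34 (adjusted p = 0.00038), and an outward rectifying potassium channel fell by 2.02 ± 0.40 (adjusted p = 0.003). These 4 were chosen after their values were seen. The calcium sensor calcineurin B-like protein 1, which partners with kinases of the SOS2 family, had 3243 and 3166 in OE NaCl seedlings, against 345 and 318 in OE control seedlings (log2 difference 3.27 ± 0.29 SE, adjusted p = 5e-06). Of 38 calmodulins and relatives 9 were higher and 5 lower, which became 5 and 0 without OE NaCl 2.

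Small heat shock proteins and some of the large chaperones rose. Of 11 small heat shock proteins Present in both groups 7 were higher and none lower, with a median of 3.11. Of 15 HSP70 chaperones 6 were higher and 1 lower (median 0.74), and of 7 HSP90 and HSP100 chaperones 3 were higher and 1 lower (median 0.82). A list of 15 large chaperones and co-chaperones had 7 members Present in both groups, of which 7 were higher (median 4.67). The list was chosen with earlier results of these data known, so its count is a description only. HSP101, which dissolves protein aggregates, had 15305 and 13086 in OE NaCl seedlings, against 30.2 and 83.8 in OE control seedlings. It was not called Present in control and was at least 281-fold higher with NaCl (adjusted p = 2.2e-07). The mitochondrial HSP23.6-MITO had 6409 and 4599 in OE NaCl seedlings, against 63 and 106 in OE control seedlings, at least 66.3-fold higher (adjusted p = 2.8e-05). The HSP90 protein HSP81-2 had 8930.5 and 10098 in OE NaCl seedlings, against 1392 and 1563 in OE control seedlings (log2 difference 2.69 ± 0.28 SE, adjusted p = 1.9e-05), and the FKBP-type protein AT5G48570 had 13064 and 14603 in OE NaCl seedlings, against 387 and 407 in OE control seedlings (log2 difference 5.12 ± 0.25 SE, adjusted p = 2.2e-08). In these 4 genes the OE NaCl arrays lay far closer to each other than to the control arrays. Some small heat shock proteins did not pass: HSP21, of the chloroplast, had 959.5 and 594 in OE NaCl seedlings, against 431 and 863 in OE control seedlings (log2 difference 0.31 ± 1.28 SE, adjusted p = 0.88), ATHSP22.0 had 1469 and 1022 in OE NaCl seedlings, against 568 and 667 in OE control seedlings (log2 difference 0.99 ± 0.60 SE, adjusted p = 0.24), and heat shock protein 18 had 1288 and 800.4 in OE NaCl seedlings, against 965 and 1101 in OE control seedlings (log2 difference -0.02 ± 0.26 SE, adjusted p = 0.96). The groups overlapped in HSP21 and in heat shock protein 18.

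Heat shock protein 18 and HSP21 were already high in the overexpressor without NaCl. On untreated seedlings heat shock protein 18 had 965 and 1101 in OE, 133 and 159 in WT and 94.2 and 119 in RD. With NaCl it had 1288 and 800.4 in OE, 672 and 684 in WT and 201 and 152 in RD. HSP21 had 431 and 863 in OE control, against 5.5 and 81.2 in WT control and 4.3 and 73.2 in RD control seedlings. Heat shock protein 17 had 1216 and 1377 in OE control, against 134 and 560 in WT control and 67.4 and 194 in RD control seedlings. It still rose with NaCl in OE (log2 difference 3.64 ± 0.57 SE, adjusted p = 0.00058). Over the 13 small heat shock proteins on the array, both OE control arrays lay above both WT control arrays in 10 and above both RD control arrays in 13. With NaCl both OE arrays lay above both WT arrays in 6 and below them in 1, and above both RD arrays in 13. These are levels read off the arrays, and their differences between genotypes were not tested. OE heat arrays lay above OE NaCl arrays in all 13.

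**Figure D2:**
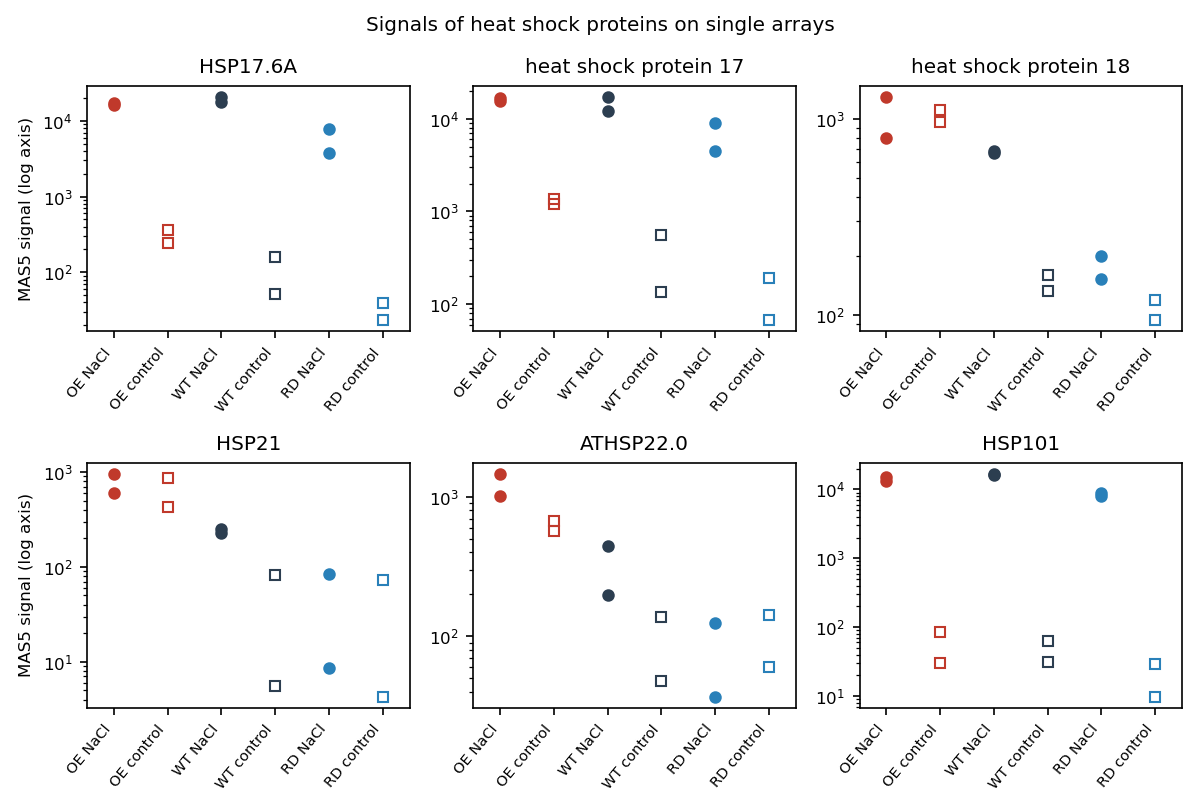
MAS5 signals (log axis) of 5 small heat shock proteins and HSP101 on each array of HSFA6b-OE (OE), wild type (WT) and HSFA6b-RD (RD), with NaCl as filled circles and control as open squares. Heat shock protein 18, HSP21 and ATHSP22.0 are high in OE without NaCl, while HSP17.6A and HSP101 are low without NaCl in all 3 genotypes.

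Of 17 heat shock factors 9 were higher and none lower (median 0.88). HSF4, a class B factor that represses transcription, had 1752 and 2633 in OE NaCl seedlings, against 329 and 449 in OE control seedlings (log2 difference 2.48 ± 0.29 SE, adjusted p = 5.2e-05). HSF3, a class A activator, had 279 and 328 in OE NaCl seedlings, against 167 and 161 in OE control seedlings (log2 difference 0.88 ± 0.28 SE, adjusted p = 0.034), and HSF1 did not pass (log2 difference 0.53 ± 0.38 SE, adjusted p = 0.33). A putative heat shock factor known only by description had 5344 and 7447 in OE NaCl seedlings, against 19.9 and 2.3 in OE control seedlings. It was not Present in OE control seedlings and was at least 447-fold higher with NaCl (adjusted p = 1.4e-06). The DnaJ protein AT1G71000 was at least 165-fold higher, with 1733 and 989 in OE NaCl seedlings, against 2.3 and 2.5 in OE control seedlings (adjusted p = 7.3e-06). DnaJ proteins as a family stayed near the background, with 4 of 37 higher and 3 lower, and 2 higher without OE NaCl 2. For folding in the endoplasmic reticulum, the transcription factors and the chaperones named here went different ways. The membrane-bound factors BZIP28 and BZIP60 rose by 2.05 ± 0.19 (adjusted p = 7.6e-06) and by 0.96 ± 0.31 (adjusted p = 0.037). Luminal binding protein, the HSP70 of that compartment, fell by 0.93 ± 0.29 (adjusted p = 0.028). The DnaJ-like ATERDJ3B fell by 1.02 ± 0.29 (adjusted p = 0.021). Both chaperones were chosen after their values were seen.

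Auxin response genes rose in part. Of 58 auxin-induced, SAUR and GH3 probe sets 13 were higher and 2 lower (median 0.28). Without OE NaCl 2 there were 6 higher, with a median of 0.07. The Aux/IAA repressors IAA29 and IAA19, which auxin signalling induces, had 2668 and 4972 in OE NaCl seedlings, against 1153 and 297 in OE control seedlings for IAA29 (log2 difference 2.64 ± 0.82 SE, adjusted p = 0.03) and 1784 and 4537 in OE NaCl seedlings, against 939 and 291 in OE control seedlings for IAA19 (log2 difference 2.44 ± 0.72 SE, adjusted p = 0.023). IAA2 had 9672 and 10319.5 in OE NaCl seedlings, against 3716 and 1964 in OE control seedlings (log2 difference 1.89 ± 0.35 SE, adjusted p = 0.0017). WES1, a further GH3 enzyme, had 4140.3 and 8554 in OE NaCl seedlings, against 872 and 1335 in OE control seedlings (log2 difference 2.46 ± 0.44 SE, adjusted p = 0.0013). No OE control array reached an OE NaCl array in these 4, and the OE control arrays of IAA29 and IAA19 were themselves far apart. IAA1 did not pass (log2 difference 0.29 ± 0.32 SE, adjusted p = 0.55).

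Gibberellin-related genes fell in part, with 6 of 13 lower and 1 higher (median -1.17). The lower members numbered 3 without OE NaCl 2. The peptide gene GASA4 had 3062 and 1979 in OE NaCl seedlings, against 8004 and 8904 in OE control seedlings (log2 difference -1.78 ± 0.38 SE, adjusted p = 0.0045), and a GAST1-like gene had 872 and 1207 in OE NaCl seedlings, against 9099 and 8723 in OE control seedlings (log2 difference -3.12 ± 0.30 SE, adjusted p = 1.3e-05). The 1 member that rose was a gibberellin 20-oxidase, an enzyme of gibberellin synthesis, with 354 and 516 in OE NaCl seedlings, against 134 and 167 in OE control seedlings (log2 difference 1.51 ± 0.48 SE, adjusted p = 0.032). Of 10 probe sets for jasmonate synthesis 4 were higher and 1 lower. A lipoxygenase, which starts that path, had 880.5 and 795 in OE NaCl seedlings, against 68.1 and 60.9 in OE control seedlings (log2 difference 3.70 ± 0.45 SE, adjusted p = 7.4e-05). A 12-oxophytodienoate reductase had 7198 and 4110.3 in OE NaCl seedlings, against 913 and 847 in OE control seedlings (log2 difference 2.63 ± 0.47 SE, adjusted p = 0.0014), and neither overlapped with control. Allene oxide synthase did not pass (log2 difference 0.32 ± 0.32 SE, adjusted p = 0.49), nor did LOX2 (log2 difference -0.22 ± 0.43 SE, adjusted p = 0.75) or the jasmonate marker VSP1 (log2 difference -1.90 ± 0.74 SE, adjusted p = 0.072). The defence genes EDS1 (log2 difference -0.33 ± 0.34 SE, adjusted p = 0.51) and PR-5 (log2 difference 0.65 ± 0.41 SE, adjusted p = 0.26) did not pass. Of the disease resistance proteins 19 (18.8%) were higher and 2 lower (median 0.42), and 12 were higher without OE NaCl 2.

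Redox enzymes split by type. The glutaredoxin GRX480 had 3742 and 3633 in OE NaCl seedlings, against 51.6 and 48.3 in OE control seedlings (log2 difference 6.21 ± 0.34 SE, adjusted p = 7.9e-08), and the glutathione transferase GSTF8 had 16636 and 19661 in OE NaCl seedlings, against 4514 and 3620.2 in OE control seedlings (log2 difference 2.16 ± 0.26 SE, adjusted p = 7.9e-05). Both were apart from control on every array. GRX480 was not called Present on both arrays of both OE groups, so its fitted value rests in part on signals not called Present. Of 28 glutathione transferases 7 were higher and 4 lower, against 4 and 1 without OE NaCl 2. Of 16 ascorbate peroxidases, catalases and superoxide dismutases 1 was higher and none lower. Class III peroxidases, secreted enzymes that act on the cell wall, fell in contrast: 19 of 32 were lower and 1 higher (median -1.33).

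Some peroxidases and wall proteins were not called Present with NaCl. The peroxidase AT3G49960 had 1.9 and 1.1 in OE NaCl seedlings, against 454 and 718 in OE control seedlings, was not called Present with NaCl, and was at least 63.9-fold lower (adjusted p = 4.6e-08). Another peroxidase had 5.5 and 2 in OE NaCl seedlings, against 575 and 643 in OE control seedlings, at least 68.1-fold lower (adjusted p = 9.9e-08). A proline-rich protein had 39.8 and 24.5 in OE NaCl seedlings, against 1809 and 1924 in OE control seedlings, at least 59.7-fold lower (adjusted p = 0.00015). All 3, chosen after their values were seen, were Present on both arrays without NaCl and on neither with it. Lower were also 6 of 13 expansins (median -1.30), 13 of 35 extensins and proline-rich wall proteins (median -0.39), 18 of 51 pectin enzymes (median -0.70) and 5 of 20 xyloglucan endotransglycosylases (median -0.96), with 2, 3, 2 and 2 higher. Without OE NaCl 2 the lower pectin enzymes numbered 9. EXPA18 was not Present in OE NaCl seedlings, at 53.8 and 36.5, against 346 and 332 in OE control seedlings, and was at least 7.65-fold lower (adjusted p = 0.00025). Expansins did not all fall: EXPA10 had 1682 and 2557 in OE NaCl seedlings, against 589 and 370.4 in OE control seedlings (log2 difference 2.15 ± 0.39 SE, adjusted p = 0.0015) and EXPA16 rose by 2.47 ± 0.46 (adjusted p = 0.0019). EXPA1 (log2 difference -0.89 ± 0.39 SE, adjusted p = 0.1) and EXPA15 (log2 difference -1.30 ± 0.46 SE, adjusted p = 0.052) did not pass.

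Of 12 root markers 5 were on the array under a name, and 2 of them fell. All 5 were Present on both OE control arrays, and 3 of them on neither OE NaCl array. Their summed signal, as a description, was 440.1 and 405 on the OE NaCl arrays, against 1256 and 1249 on the OE control arrays. SCARECROW (SCR) of the root endodermis had 182 and 175 in OE NaCl seedlings, against 596 and 636 in OE control seedlings (log2 difference -1.79 ± 0.58 SE, adjusted p = 0.035). SHORT-ROOT (SHR), its activator from the stele, was at least 7.87-fold lower and not Present with NaCl, with 6.3 and 28.3 in OE NaCl seedlings, against 158 and 134 in OE control seedlings (adjusted p = 0.0044). Both fell on both arrays. EXPA7 of root hairs was not Present with NaCl, with 63 and 52.9 in OE NaCl seedlings, against 169 and 200.4 in OE control seedlings. Its fitted fall was 3.19-fold and not past the test (log2 difference -1.67 ± 0.68 SE, adjusted p = 0.085). WER, which sets the fate of root epidermis cells with GL2, was not Present with NaCl either. It had 26.7 and 2.6 in OE NaCl seedlings, against 47.5 and 53.8 in OE control seedlings. Its fitted difference rests in part on signals not called Present and did not pass (log2 difference -2.60 ± 1.22 SE, adjusted p = 0.13). GL2 did not pass (log2 difference -0.72 ± 0.29 SE, adjusted p = 0.085). The summed signal of 2 shoot markers, RCA and LHCB3, was 66419 and 30899 on the OE NaCl arrays, against 55428 and 52690 on the OE control arrays, with neither called. These arrays hold RNA of whole seedlings, so fewer cells of a type and less RNA per cell cannot be told apart. The part of the root in the falls of peroxidases and wall proteins was not tested.

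Genes for growth machinery fell by smaller steps. Of 209 cytosolic ribosomal proteins 137 were lower and 1 higher, with a median of -0.97. The ribosomal protein AT3G06680 had 414 and 221 in OE NaCl seedlings, against 1995 and 2080.3 in OE control seedlings (log2 difference -2.75 ± 0.35 SE, adjusted p = 0.00012), and AT5G60670 had 844 and 356 in OE NaCl seedlings, against 2978 and 2665 in OE control seedlings (log2 difference -2.36 ± 0.51 SE, adjusted p = 0.0048). In both, OE NaCl 2 was the lowest array. Without OE NaCl 2 only 33 ribosomal proteins were called lower, and without OE NaCl 1 there were 130, with medians of -0.77 and -1.17. Lower were also 16 of 37 histones (median -0.76), 8 of 17 tubulins (median -0.85), 9 of 37 cyclins and their kinases (median -0.48) and 12 of 46 proteasome subunits (median -0.45), with 3, 0, 3 and 1 higher. Without OE NaCl 2 there were 2 tubulins, 1 cyclin or kinase and 1 proteasome subunit lower, and without OE NaCl 1 there were 10 histones. PCNA1, the sliding clamp of DNA replication, had 146 and 106 in OE NaCl seedlings, against 261 and 347 in OE control seedlings (log2 difference -1.28 ± 0.42 SE, adjusted p = 0.038), and the mitotic kinase AUR1 had 224 and 138 in OE NaCl seedlings, against 322 and 310.5 in OE control seedlings (log2 difference -0.85 ± 0.27 SE, adjusted p = 0.034). The mitotic cyclin CYCB1;1 did not pass (adjusted p = 0.31), with 42.9 and 41.4 in OE NaCl seedlings, against 64.6 and 92 in OE control seedlings.

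Photosynthesis genes depended on the array. Of 40 chlorophyll-binding and photosystem proteins 5 were lower and none higher, a share near the background, with a median of -0.50. All 40 had a higher signal on OE NaCl 1 than on OE NaCl 2. The count was 11 and the median -0.91 without OE NaCl 1, and 1 and -0.04 without OE NaCl 2. LHCB3, of the light-harvesting antenna, had 25931 and 7486 in OE NaCl seedlings, against 25973 and 24599 in OE control seedlings (log2 difference -0.86 ± 0.60 SE, adjusted p = 0.31). OE NaCl 1 lay within the control range there and OE NaCl 2 lay far below it. LHCB4.1 (log2 difference -0.45 ± 0.36 SE, adjusted p = 0.39) and LHCB4.2 (log2 difference -0.58 ± 0.37 SE, adjusted p = 0.27) did not pass. Photosystem I subunit VI, in contrast, was low on both, with 9613 and 4333 in OE NaCl seedlings, against 28159 and 27126 in OE control seedlings (log2 difference -2.10 ± 0.44 SE, adjusted p = 0.0037). The asparagine synthetase ASN1, which is induced in the dark and in sugar starvation, had 9149.9 and 18168 in OE NaCl seedlings, against 3544 and 2504 in OE control seedlings (log2 difference 2.11 ± 0.54 SE, adjusted p = 0.011).

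Some seed and surface proteins fell. Of 3 seed storage proteins and oleosins Present in both OE groups 1 was lower and 0 higher. It was an oleosin, a coat protein of seed oil bodies, with 385 and 299 in OE NaCl seedlings, against 3568 and 2217 in OE control seedlings (log2 difference -3.05 ± 0.34 SE, adjusted p = 3.6e-05). Of 7 Present in either OE group 4 were lower and 0 higher, a count that takes in members through the group where they are high. The seed marker OLEO1, Present on 1 OE NaCl array, had 48 and 44.6 in OE NaCl seedlings, against 703 and 448 in OE control seedlings (log2 difference -3.60 ± 0.40 SE, adjusted p = 3.5e-05). Of 22 lipid transfer proteins 10 were lower and 2 higher (median -1.18). A pEARLI1-like member had 133 and 140.3 in OE NaCl seedlings, against 2559 and 2746 in OE control seedlings (log2 difference -4.28 ± 0.44 SE, adjusted p = 1.9e-05). Of 17 aquaporins 4 were lower and 2 higher, with 1 lower without OE NaCl 1 and 1 without OE NaCl 2. The plasma membrane aquaporins PIP1A (log2 difference -0.36 ± 0.31 SE, adjusted p = 0.43) and PIP2A (log2 difference -0.08 ± 0.35 SE, adjusted p = 0.89) did not pass. As references, UBQ10 (log2 difference 0.40 ± 0.24 SE, adjusted p = 0.24), AT2G28390 (log2 difference -0.19 ± 0.26 SE, adjusted p = 0.62) and AT4G34270 (log2 difference 0.43 ± 0.30 SE, adjusted p = 0.31) were not called.

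**Figure D3:**
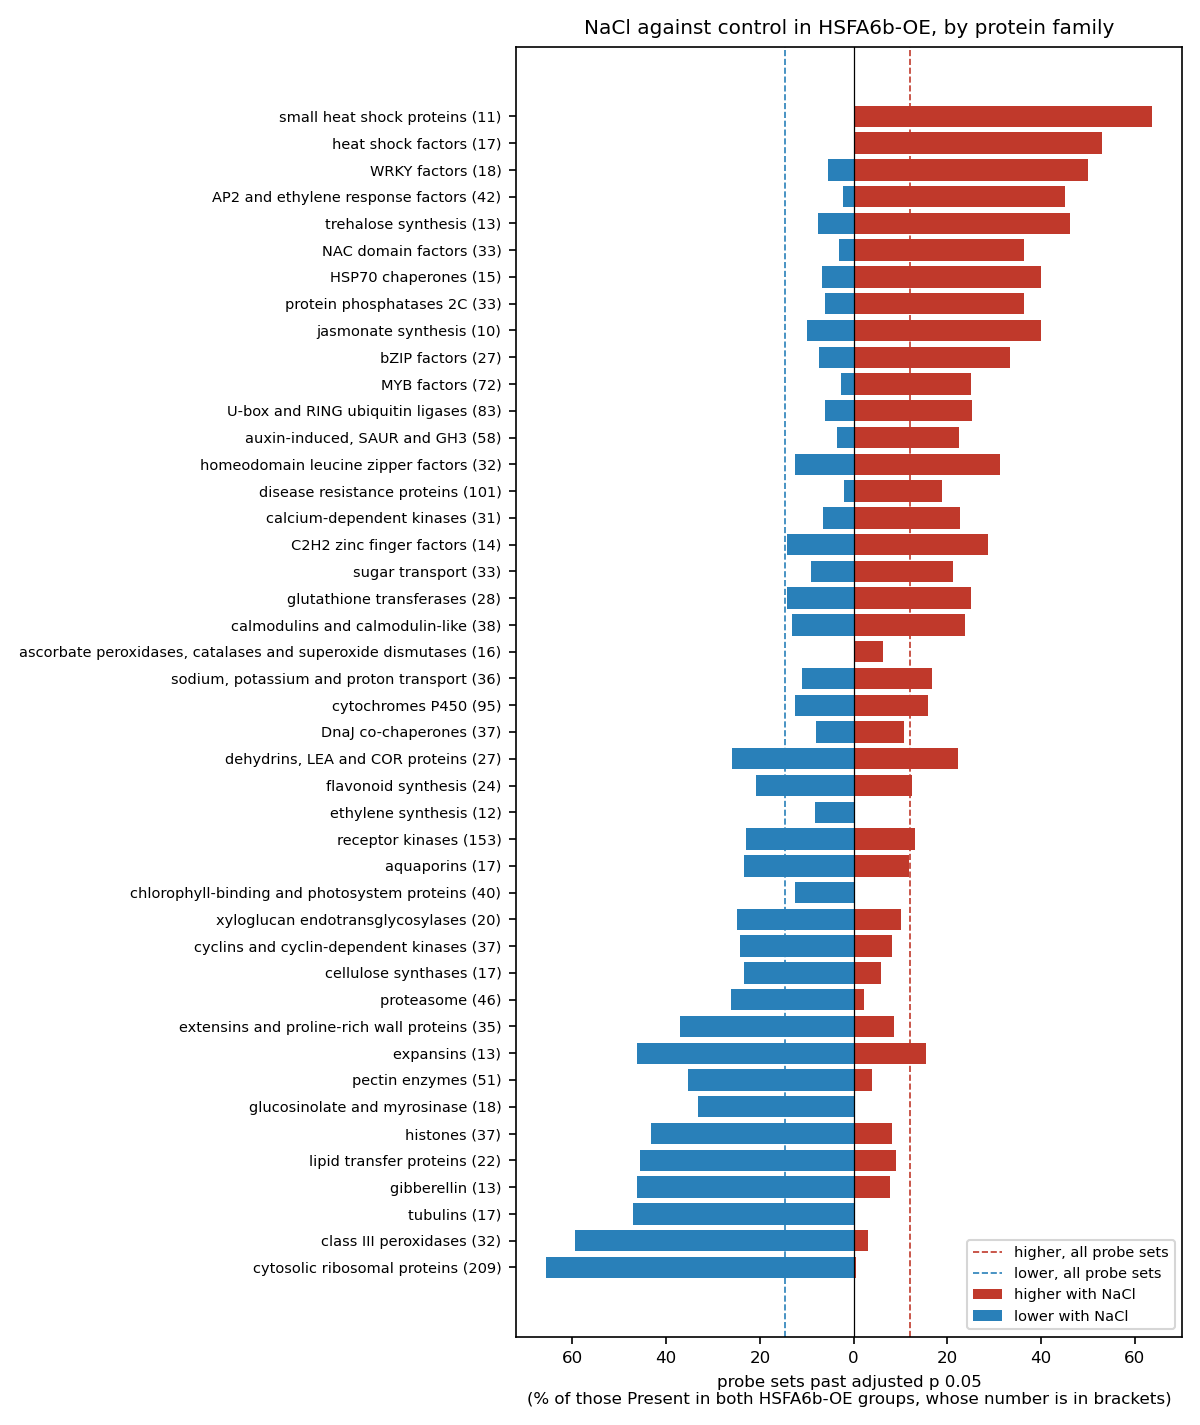
Share of probe sets higher (right) and lower (left) with NaCl at an adjusted p under 0.05 in each family with at least 10 probe sets Present in both HSFA6b-OE groups, in percent, with dashed lines at the shares over all probe sets (12% and 14.6%). Small heat shock proteins and heat shock factors reach furthest to the right, and cytosolic ribosomal proteins and class III peroxidases furthest to the left.

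How the response of the overexpressor compares with that of the other genotypes was asked through the difference of the NaCl responses. In WT 2033 probe sets (12.3%) were higher with NaCl and 3129 (18.9%) lower, and in RD 2040 (12.3%) were higher and 3315 (20%) lower. Of the probe sets higher in OE 1608 were also higher in WT, which is 82.3% of the OE list and 79.1% of the WT list, and 1481 were also higher in RD, 75.8% and 72.6%. Of those lower in OE 2113 were lower in WT (82.5% and 67.5%) and 1943 in RD (75.9% and 58.6%). Across the 16547 probe sets, which are not independent, the log2 responses of OE correlated at r = 0.933 with WT and r = 0.873 with RD. The arrays are separate, but OE NaCl 1 and WT NaCl 1 share the second array series, which holds no RD array. The higher r with WT therefore cannot be told apart from an effect of the array series.

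No probe set passed for a difference of the NaCl response between OE and WT (0%). The smallest adjusted p of limma was 0.473, and 161 probe sets, 0.973%, had an unadjusted p under 0.05. That share is below the one a threshold of 0.05 gives when nothing differs, so the test may be conservative here. The absence of calls does not show that the responses are equal. The SE of such a difference had a median of 0.48, against 0.34 for the response within OE. That smallest value belonged to heat shock protein 18, whose response was -0.02 in OE and 2.22 in WT, a difference of -2.24 ± 0.36.

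Between OE and RD, 4 probe sets passed (0.0242%), all with a higher response in OE. SAUR-AC1, an early auxin gene, had 755 and 938 in OE NaCl and 521 and 285 in OE control seedlings, and 31.9 and 57 in RD NaCl and 311 and 358 in RD control seedlings. It was higher with NaCl in OE and lower with NaCl in RD, a difference of 4.095 ± 0.50 (adjusted p = 0.011). An auxin-induced protein had 1279.9 and 1955 in OE NaCl and 822 and 436 in OE control seedlings, and 89.7 and 147 in RD NaCl and 977 and 626 in RD control seedlings, a difference of 4.17 ± 0.57 (adjusted p = 0.022). An auxin-regulated protein had 916 and 1902 in OE NaCl and 1335 and 964 in OE control seedlings, and 184 and 139.6 in RD NaCl and 1609.8 and 1651 in RD control seedlings, a difference of 3.56 ± 0.51 (adjusted p = 0.029). All 3 were low on both RD NaCl arrays alone among these groups. IQD19, a calmodulin-binding protein, had 76 and 80.2 in OE NaCl and 158 and 183 in OE control seedlings, and 5 and 6.2 in RD NaCl and 160.3 and 154 in RD control seedlings, with a fitted difference of the responses of 3.70 ± 0.43 (adjusted p = 0.011). It was not called Present on either RD NaCl array, nor on 1 of the OE NaCl arrays, so the fitted value rests in part on signals not called Present. With the RD NaCl arrays set to the lowest signal called Present, it was at least 15.4-fold lower with NaCl in RD (adjusted p = 2.3e-07), and the difference of the responses was at least 2.83. None of the 4 passed without OE NaCl 2, without OE control 2, or without either RD control array. The median response of the 58 auxin-related probe sets was 0.28 in OE, 0.20 in WT and -0.55 in RD, and 2, 6 and 21 of them were lower with NaCl.

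**Figure D4:**
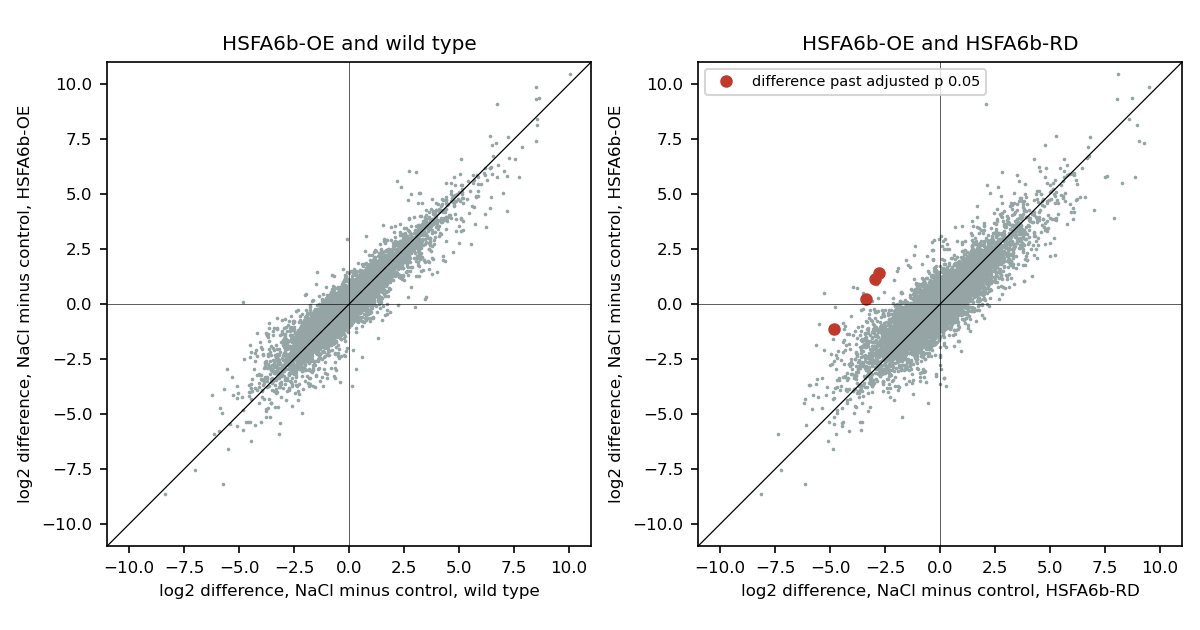
Log2 difference, NaCl minus control, in HSFA6b-OE (vertical) against wild type (left) and HSFA6b-RD (right) for 16547 probe sets, with the line of equal response. The 4 probe sets whose response differed between HSFA6b-OE and HSFA6b-RD are marked in red and lie above the line, and no probe set is marked in the wild type panel.

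Against heat, the NaCl response of the overexpressor differed widely. OE NaCl arrays were higher than OE heat arrays in 3387 probe sets (20.5%) and lower in 2258 (13.6%). Heat against control gave 1004 higher (6.07%) and 2116 lower (12.8%) in OE. The responses to NaCl and to heat share the OE control arrays, so they are set side by side only. Small heat shock proteins had a median of 3.11 with NaCl and 5.62 with heat, HSP70 proteins 0.74 and 2.81. Directly compared, 8 of 11 small heat shock proteins were lower with NaCl than with heat and none higher. HSP21 had 959.5 and 594 with NaCl, against 30608 and 30033 with heat (-5.33 ± 1.28, adjusted p = 0.0062). HSP17.6A, in contrast, had 17094 and 16275 with NaCl, against 35497 and 32974 with heat, and did not pass (-1.04 ± 0.45, adjusted p = 0.093). HSP101 had 15305 and 13086 with NaCl, against 33615 and 33720.5 with heat, and did not pass either (adjusted p = 0.067).

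Several families, among them ribosomal proteins and auxin genes, had medians on opposite sides of 0 under the 2 treatments. The median of the ribosomal proteins was -0.97 with NaCl and 0.13 with heat, and 156 of 209 were lower with NaCl in the direct comparison. Auxin-related probe sets had medians of 0.28 with NaCl and -1.05 with heat, and 33 of 58 were higher with NaCl. Of WRKY factors 13 of 18 were higher with NaCl than with heat, with medians of 1.11 with NaCl and -0.25 with heat, where the median of all probe sets was -0.29. IAA29 had 2668 and 4972 with NaCl, against 22.3 and 32.1 with heat, where it was not called Present, and was at least 136-fold higher with NaCl (adjusted p = 3.5e-05). GH3.3 had 9234 and 15564 with NaCl, against 206 and 124 with heat (6.23 ± 0.53, adjusted p = 3.3e-06). IAA29 lay below both OE control arrays on both heat arrays. On the log2 scale its NaCl signal was 2.64 above control and at least 7.09 above heat. GH3.3 was not above its control arrays on both heat arrays. JRG21 (5.71) and GRX480 (5.62) followed. Lower with NaCl than with heat, beside HSP21, were the mitochondrial transcripts ccb452 (-5.24), nad5 (-4.84) and nad6 (-4.64). nad6 had 229 and 96.7 with NaCl, against 4077 and 3362 with heat and 47.4 and 84.9 in OE control seedlings.

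**Figure D5:**
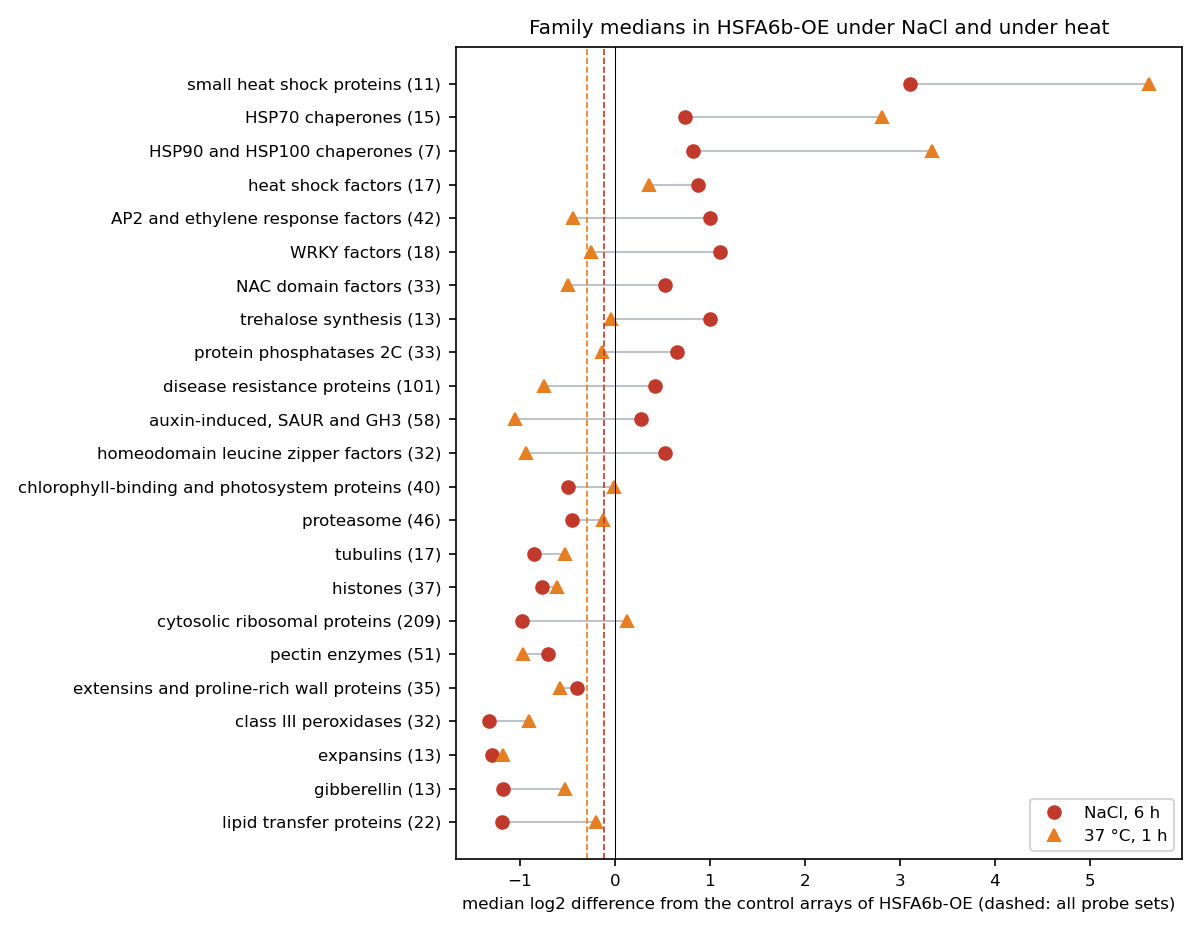
Median log2 difference from the shared OE control arrays for families of probe sets Present in both OE NaCl and OE control, with NaCl (circles) and heat (triangles), and dashed lines at the medians over all probe sets. The families shown are a choice made after their values were seen. Of them, small heat shock proteins are furthest right under both treatments, and the medians of cytosolic ribosomal proteins and of the AP2, WRKY and auxin families lie on opposite sides of 0, with WRKY factors under heat close to the median of all probe sets.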

How the data were processed

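RNA of whole seedlings was hybridised to an Affymetrix array of 22810 probe sets, 64 of them controls, from 10 µg RNA each. Per the labels, the authors ran MAS5 to make a linear intensity, the signal, with a detection call. Its version is not stated in the labels. The authors also deposited a detection p-value per probe set, and the whole-series table of signals equals the array files. The trimmed mean is near 500 on every array, so a change in total RNA is not seen.

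Signals were taken to log2 (floor 0.1). limma 3.58.1 in R 4.3.3 (lmFit, eBayes with trend) fitted all 18 arrays over 17379 probe sets Present on both arrays of any group, so all groups share 1 estimate of the spread. P values were adjusted (Benjamini-Hochberg) over all of them, with a threshold of 0.05, and the 16547 probe sets of the comparison are described. Where a group had no Present call, the fold is given as "at least", from mean log2 signals against the higher of the lowest Present signal and the probe set's own signal on each array. In simulated data of 17379 probe sets for NaCl against control in OE, 9 of 100 changes of 1 log2 unit and 58 of 100 of 2 units were recovered, with 5 false calls. The simulation changed no other probe sets, drew independent noise and held no effect of array series or replicate number. In the data 27.3% of probe sets were called, so the simulated recovery is not that of this comparison.

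In the platform annotation 13513 probe sets carry 1 gene symbol, 503 more than that and 8730 none, while 117 took a name from their description. Named were the 12 largest rises and falls among named probe sets Present on all 4 arrays, up to 6 called and 3 other members of each gene list, and the 3 or 4 leading probe sets of each further comparison, with ties in adjusted p ordered by unadjusted p, a choice made after seeing the data. Other genes were chosen after their values were seen. The members, the lists and the families were chosen with earlier results of these data known. Replicates are independent biological ones per the labels, and the number of arrays limits the precision. Tables and figures were made with Python 3.11.15, pandas 2.3.3, numpy 2.4.6 and matplotlib 3.10.9. Alternatives changed the normalization, offset, filter, trend, samples and blocks. No coordinates or sequences are given.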

Additional observations from a re-analysis of the deposited data

Results flagged for a closer look

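The NaCl response differed between OE and RD in 4 probe sets, by limma's test of the difference over all arrays. The difference, OE minus RD, was 4.17 for the auxin-induced protein, 4.095 for SAUR-AC1, 3.70 for IQD19 and 3.56 for the auxin-regulated protein. IQD19 was not called Present on either RD NaCl array, so its value rests in part on signals not called Present, and with those arrays set to the lowest signal called Present the difference was at least 2.83. The other 3 were lower with NaCl on both RD arrays, against RD control. In groups of 2 arrays no single array can be tested as an outlier.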

How the results depend on the processing

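No named probe set with a call changed direction under the alternatives run. Of the family medians given, that of C2H2 zinc finger factors, -0.09, became 0.14 without OE NaCl 2. The other family medians given kept their sign with quantile normalization and without either OE NaCl array. The count of probe sets lower with NaCl in OE, 2560, became 3910 with the array series as a block. Leaving out 1 array gave 1032 to 1655 higher and 1012 to 2453 lower probe sets. Of 180 called probe sets that the text or its tables name, 136 kept their call under every alternative, and the most losses, 42, came without OE NaCl 2. For OE minus WT, 1 probe set was lower within the first array series, and leaving out 1 array gave 0 to 0 in both directions. For OE minus RD, 9 were higher with the series as a block, 9 higher and 3 lower within the first series, and 2 higher without the intensity trend. Leaving out 1 array gave 0 to 5 higher and 0 to 1 lower. NaCl against heat gave 1968 to 2647 higher and 1258 to 2167 lower with 1 array left out.

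The replicate numbers do not pair OE NaCl with OE control: the differences between replicates 1 and 2 in these groups correlated at 0.0625. Over 36 pairs of groups this ran from -0.0762 to 0.627, with a median of 0.0599. Some groups thus shared deviations by replicate number. For replicates 1 and 2, the summed signal of chlorophyll-binding and photosystem proteins was 693779 and 345966 in OE NaCl. It was 648142 and 387288 in WT NaCl, and 646903 and 444529 in RD NaCl. With the replicate block, 2165 were higher and 2836 lower. Fits without 1 array leave a group with 1 sample, which is assumed to vary like the other groups. For probe sets near background, and for differences between genotypes, 2 arrays a group limit what can be seen.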
